A study of Mus musculus with 3 samples.

Results

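The genes described here are 44 enzymes, carriers and regulators of fatty acid oxidation in mitochondria and peroxisomes. They were chosen by gene symbol for their known function, and 44 of 44 symbols were found among the 18038 genes of the table. Of the 44, 42 carry a mitochondrial annotation in the table, 17 a peroxisomal one and 16 both. The samples are 3 hearts of wild-type (WT) mice of the inbred strain C57BL/6J, taken 9 days after birth and called hearts 1, 2 and 3 after their replicate numbers. Trizol extracts of total RNA were read on DNBSEQ, a platform that sequences DNA nanoballs, in a study whose title concerns glutamylated microtubules and ischaemic heart injury. No other genotype, age or treatment is in the set, so levels were compared between genes within hearts and between the 3 hearts. The labels do not say whether the hearts came from separate litters or were pooled, so every p-value here reflects the spread of these 3 samples alone, part or all of which may be technical.

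Fatty acids are activated to acyl-CoA by synthetases, carried into mitochondria as carnitine esters and shortened in a spiral of dehydrogenation, hydration, a second dehydrogenation and thiolysis. Electrons from the acyl-CoA dehydrogenases pass through electron transfer flavoprotein to the respiratory chain. Peroxisomes run a parallel spiral, started by oxidases, for very long-chain and branched fatty acids. In the mouse heart the pathway takes over from glucose use in the weeks after birth, when milk supplies fat.

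The hearts had 17766501, 18643408 and 18768094 counts, and all 12 cardiomyocyte markers were detected in each, led by Myl2, the ventricular light chain, at 27070, 25082 and 26231 TPM. Myh6, the alpha myosin heavy chain, was at 12610, 12257 and 11975 TPM. TPM is a level per length, obtained here by scaling the FPKM of each heart to sum to 1000000. A count of 0 allows up to 3 counts, which is 0.113, 0.109 and 0.105 TPM for a typical gene, a limit that covers counting error only. The first 2 markers of the other lists averaged 229 TPM for Pecam1 and 255 TPM for Cdh5 (endothelium), 667 TPM for Col1a1 and 581 TPM for Col1a2 (fibroblasts), and 20.6 TPM for Cd68 and 28.1 TPM for Csf1r (macrophages). For smooth muscle they were 630 TPM for Acta2 and 26.4 TPM for Myh11, and for red cells 4939 TPM for Hba-a1 and 3150 TPM for Hba-a2. Those of nerve, lymphoid cells, liver and skeletal muscle averaged 4.13 TPM for Tubb3 and 1.67 TPM for Snap25 (nerve), 0.206 TPM for Cd3e and 0.359 TPM for Cd8a (lymphoid), 0.0773 TPM for Apoa1 (liver) and 0.0196 TPM for Myh1 (skeletal muscle, beside Acta1 at 76.2 TPM). Lung and adipocyte markers differed between hearts and are given with the variation between them. In bulk RNA, fewer cells of a type and less RNA per cell cannot be told apart.

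A pair of neighbouring genes and a pair of near copies are shown as sequence, the first for the promoter bases they share and the second for their likeness in coding sequence. Whether the shared promoter bases bear on the levels was not tested. Hadha and Hadhb, which encode the alpha and beta subunits of the trifunctional protein, lie head to head on chromosome 5. As deposited with the counts, Hadha spans 30118304 to 30164064 and Hadhb 30155253 to 30184593, so these spans overlap. In RefSeq (GRCm38.p6) the transcripts of these genes start at 30154980 on the minus strand and 30155253 on the plus strand, 273 bases apart. The promoter windows, 250 bases before to 50 after each start, therefore share 228 bases, in capitals in the Hadhb window at chr5:30155003-30155302 on the plus strand.
Hadhb promoter: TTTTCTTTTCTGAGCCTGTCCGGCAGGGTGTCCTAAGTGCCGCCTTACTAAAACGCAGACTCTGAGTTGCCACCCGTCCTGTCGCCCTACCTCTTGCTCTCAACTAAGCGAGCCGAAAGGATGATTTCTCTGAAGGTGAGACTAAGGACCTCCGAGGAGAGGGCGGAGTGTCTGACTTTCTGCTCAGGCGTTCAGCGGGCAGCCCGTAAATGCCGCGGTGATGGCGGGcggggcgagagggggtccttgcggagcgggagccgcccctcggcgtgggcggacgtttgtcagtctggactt

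Acaa1a and Acaa1b encode the peroxisomal 3-ketoacyl-CoA thiolases A and B and lie on chromosome 9 at 119340073 to 119355340 (plus strand) and 119148043 to 119157093 (minus strand) in the table. Their coding sequences (GENCODE M21) are both 1272 bases long and 96.5% identical, with 44 differences. The first 120 bases from the start codon hold 4 of these, in capitals.
Acaa1a coding start: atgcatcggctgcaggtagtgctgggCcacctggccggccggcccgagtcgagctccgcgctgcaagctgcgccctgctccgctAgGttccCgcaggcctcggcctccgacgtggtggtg
Acaa1b coding start: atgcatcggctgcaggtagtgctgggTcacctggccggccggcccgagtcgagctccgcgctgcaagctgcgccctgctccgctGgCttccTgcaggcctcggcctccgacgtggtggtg
The RefSeq promoter windows of the same genes look less alike. The Acaa1a window lies inside the span given above for that gene, past its start there. In the windows at chr9:119341044-119341343 (plus strand, Acaa1a) and chr9:119157044-119157343 (minus strand, Acaa1b), capitals mark the GC box GGGCGG, the CCAAT box and the TATA box TATAAA on either strand.
Acaa1a promoter: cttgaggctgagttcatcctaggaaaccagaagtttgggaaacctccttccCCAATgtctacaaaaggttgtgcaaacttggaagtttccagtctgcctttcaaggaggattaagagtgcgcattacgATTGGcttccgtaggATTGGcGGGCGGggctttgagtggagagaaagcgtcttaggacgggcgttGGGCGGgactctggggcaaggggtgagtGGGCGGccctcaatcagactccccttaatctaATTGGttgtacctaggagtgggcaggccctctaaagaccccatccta
Acaa1b promoter: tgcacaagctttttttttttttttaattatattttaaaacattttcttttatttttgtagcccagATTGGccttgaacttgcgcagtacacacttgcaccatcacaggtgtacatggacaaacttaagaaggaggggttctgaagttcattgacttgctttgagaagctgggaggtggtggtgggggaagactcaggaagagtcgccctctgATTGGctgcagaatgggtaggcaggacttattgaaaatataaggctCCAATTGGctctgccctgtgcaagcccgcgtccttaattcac
The Acaa1a window holds 3 GC boxes and 4 CCAAT boxes. The Acaa1b window holds 0 GC boxes and 4 CCAAT boxes, of which the last pair overlap on opposite strands. Neither window holds TATAAA.

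RefSeq promoter windows matched 36 of the 44 members, and 10316 genes detected in these hearts served as background. The 8 without a window were Cpt1b, Acaa2, Crat, Decr1, Acot13, Hsd17b4, Acad9 and Abcd2, which the shares below leave out. GGGCGG stood in the windows of 26 of the 36 members (72.2%), against 68.6% of detected genes, and CCAAT in 19 (52.8%), against 43.0%. TATAAA was found in 2 members, Acacb and Acot9 (5.56%), against 8.70% of detected genes. The nuclear receptor hexamer AGGTCA was in 8 members (22.2%), namely Acacb, Acadm, Acadvl, Acsl6, Cpt1c, Echs1, Phyh and Plin5, against 14.7% of detected genes. The longer TCAAGGTCA, bound by estrogen-related receptors and containing that hexamer, was in Acsl6 alone (2.78%), against 0.310% of detected genes. The direct repeat of that hexamer with any 1 base between, the element of PPAR receptors, was in 0 of 36, against 0.0485%. Only 5 of the 10316 detected genes held these exact letters, so their absence from 36 windows does not show that members lack such an element. All motifs were searched on both strands, and a match is a stretch of letters, not a site shown to be bound.

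The oxidation genes as a whole made up a visible share of heart RNA. Their summed level was 13769, 12762 and 13237 TPM in hearts 1, 2 and 3, which is 1.33% ± 0.0504 of all TPM (SD, n = 3). Of the 44 members, 43 were detected at 1 CPM (counts scaled to a total of 1000000) or more in every heart, against 71.8% of all genes. The exception was Acaa1b. The 18 highest members, from Acadl down to Echs1, stood at or above the 95.1st percentile of detected genes, and Acadl was 92nd of all genes in the table. The lowest detected member, Acsl6, stood at the 1.405th percentile.

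**Figure D1:**
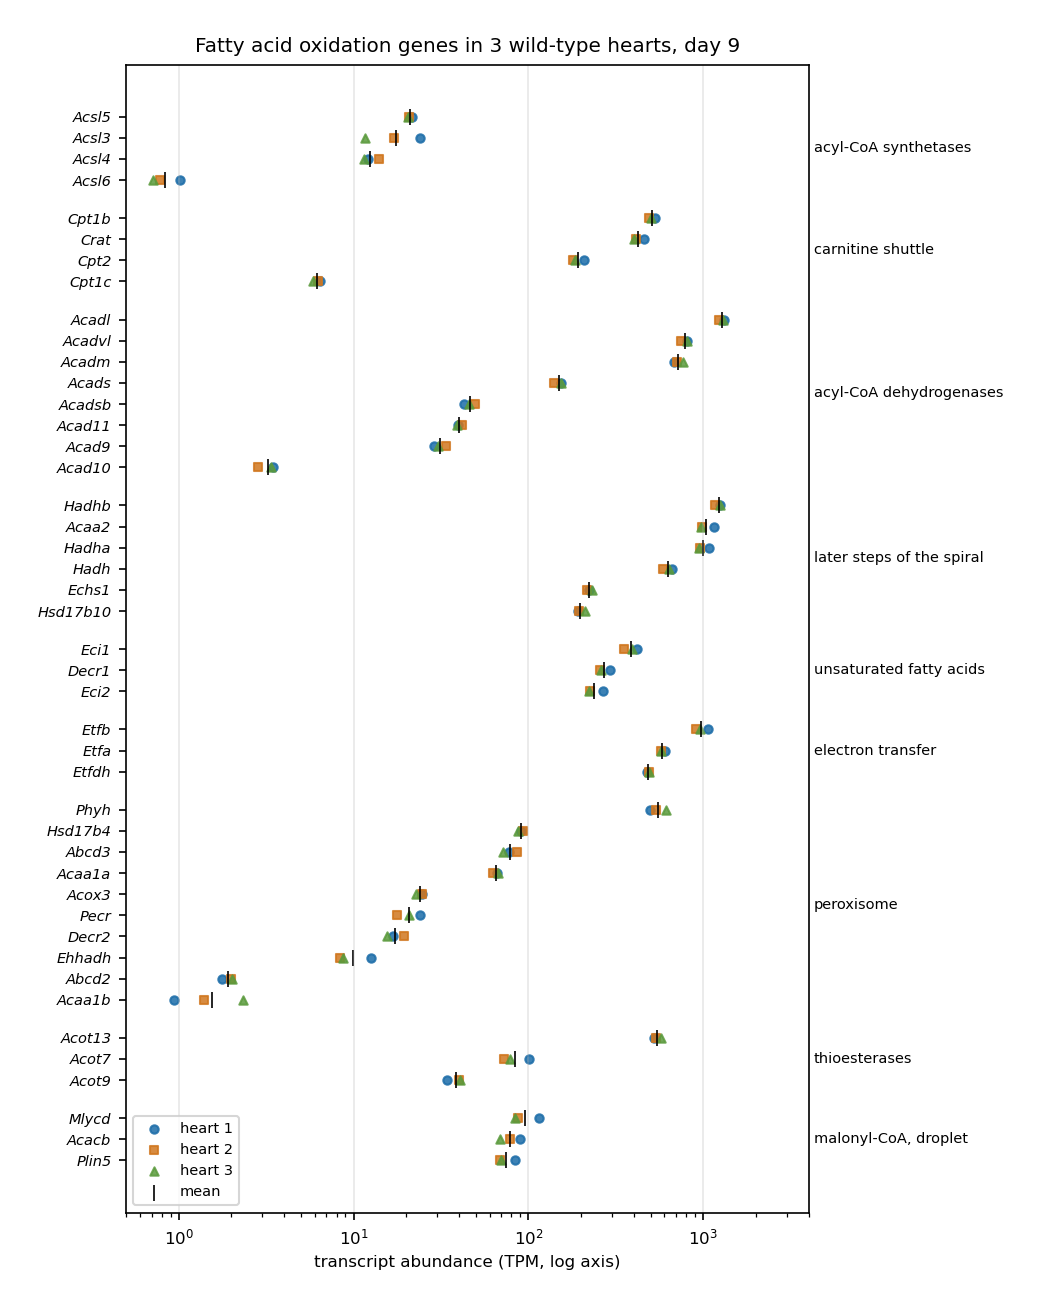
Level of each of the 44 genes in hearts 1, 2 and 3 (points) and the mean (tick), in TPM on a log axis, grouped by role. Levels run from 0.837 TPM for Acsl6 to 1284 TPM for Acadl, and for most genes the 3 points lie close together.

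All 946 pairs of members were compared within hearts per length with edgeR's quasi-likelihood test, the heart as a block, and 904 (95.6%) differed at an adjusted p under 0.05. A difference between a given pair of genes is therefore the rule, and the size of the ratio is given for 30 pairs chosen by role. Of these, 29 passed the test, 24 with the first-named gene higher and 5 with the second-named gene higher. Among the 43 pairs that stand next to each other in the order of levels, 16 passed and 27 did not. Pairs share genes, so the 946 results are not independent. The fit also shares its estimate of spread across pairs, so the p-value of a single pair does not rest on its own values alone.

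**Figure D2:**
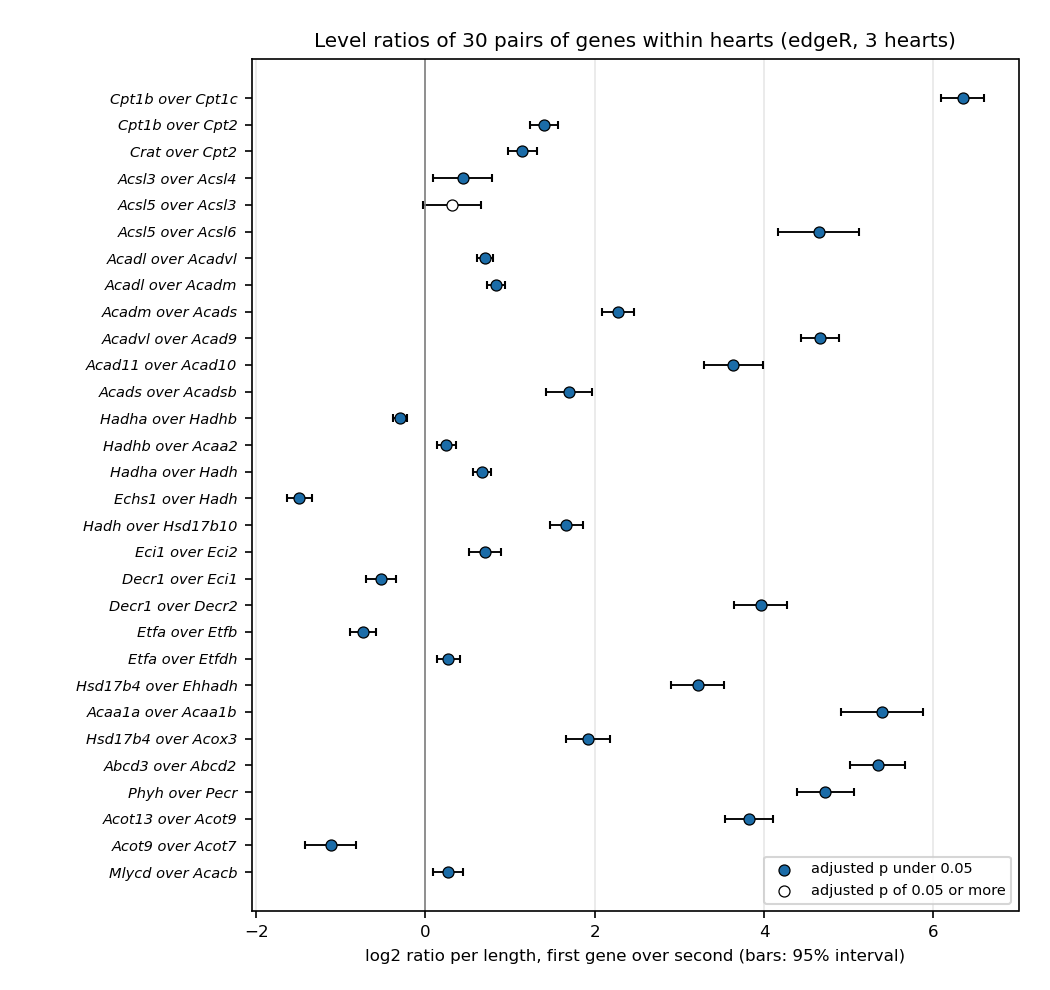
Log2 ratio of levels per length for the 30 role-based pairs (points, first gene over second) with 95% intervals from edgeR, n = 3 hearts. Filled points passed at an adjusted p under 0.05, and the open point, Acsl5 over Acsl3, did not.

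The 4 acyl-CoA synthetases of the set, which activate long-chain fatty acids, were low. Acsl5, found on mitochondria and endoplasmic reticulum, was at 21.6, 20.8 and 20.5 TPM. Acsl3, an enzyme of endoplasmic reticulum and lipid droplets (chr1:78657825-78707743), was at 23.9, 17.1 and 11.6 TPM, highest in heart 1 and lowest in heart 3. Acsl4, which prefers arachidonate, was at 12.04, 13.9 and 11.5 TPM, so the range of Acsl3 took in all values of Acsl5 and most of those of Acsl4. The ratio of Acsl5 to Acsl3 was 0.31 ± 0.16 on the log2 scale (SE; 95% interval -0.03 to 0.66; edgeR adjusted p = 0.0734), not past the threshold, and Acsl3 was the higher of the pair in heart 1. Without heart 1 the ratio was 0.56 and passed (edgeR adjusted p = 0.0105). With longest coding transcript lengths it was -0.27, and with no length correction -0.17. Acsl3 exceeded Acsl4 by 0.44 ± 0.16 (log2, SE; edgeR adjusted p = 0.0164). The call is not firm: the ratio was 0.16 without heart 1 (edgeR adjusted p = 0.284) and 0.039 with no length correction (edgeR adjusted p = 0.823), and limma on the log2 TPM ratio gave 0.43 (adjusted p = 0.0658). Acsl6, best known as the brain enzyme, was at 1.02, 0.780 and 0.715 TPM, and Acsl5 exceeded it 25.0-fold. Acsl1, the main synthetase of heart muscle and not one of the 44, stood at 638, 569 and 538 TPM.

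Carnitine shuttle genes were led by Cpt1b, the muscle form of carnitine palmitoyltransferase 1 and the entry gate of the mitochondrial pathway (chr15:89416405-89425862). It was at 527, 489 and 503 TPM (mean 506 ± 19.1, SD, n = 3), a spread of few percent. Cpt1c, the brain form, was at 6.47, 6.28 and 5.90 TPM. Cpt1b exceeded Cpt1c in each heart, by 6.35 ± 0.12 on the log2 scale (SE), or 81.4-fold (edgeR adjusted p = 1.67e-19). Cpt1a, a further carnitine palmitoyltransferase 1 gene and not a member of the set, stood at 93.5, 81.6 and 61.2 TPM. It lay below Cpt1b and above Cpt1c in every heart, and its ratio to either was not tested. Cpt2, which turns acyl-carnitine back into acyl-CoA at the inner membrane, was at 209, 181 and 185 TPM. Crat, the acetyltransferase that exports acetyl groups as acetylcarnitine, was at 459, 412 and 399 TPM. Against Cpt2, Cpt1b was 2.65-fold and Crat 2.21-fold higher, in all 3 hearts each (edgeR adjusted p = 2.48e-12 and 7.23e-11). Of the 100-base stretches of the Cpt1b transcript, 91.1% also occur in Gm44502, and how reads of such stretches were assigned is not given in the sources used here.

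Among the 8 acyl-CoA dehydrogenases, which carry out the first step of the spiral, levels spanned from 3.23 to 1284 TPM. Acadl, the long-chain enzyme (chr1:66830832-66863309), was at 1318, 1237 and 1296 TPM and led the whole set. Acadvl, the membrane-bound enzyme for very long chains, was at 804, 749 and 807 TPM. Acadm, the medium-chain enzyme, was at 684, 713 and 765 TPM. Acadl exceeded Acadvl by 0.71 ± 0.05 and Acadm by 0.83 ± 0.05 on the log2 scale (SE; edgeR adjusted p = 1.67e-11 and 1.16e-11), in every heart. Of the exon bases of Acadvl, 42.9% lie opposite exons of Dvl2, a gene at 11.4 TPM, and reads of the strands cannot be told apart without a stated strand setting.

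Acads, the short-chain enzyme, was lower than those at 153, 141 and 153 TPM, and Acadm exceeded it 4.83-fold (edgeR adjusted p = 6.50e-15). Acadsb, which acts on short branched chains from isoleucine, was at 43.0, 49.8 and 45.5 TPM, and Acads exceeded it 3.24-fold, 1.70 on the log2 scale (edgeR adjusted p = 2.88e-10). That log2 ratio was 0.82 with no length correction, 2.41 with longest transcript lengths and 2.52 with longest coding transcripts. Acad9, also an assembly factor of respiratory complex I, was at 28.8, 33.9 and 30.4 TPM, highest in heart 2. Acadvl exceeded Acad9 25.4-fold, 4.67 on the log2 scale (edgeR adjusted p = 2.21e-18), and by 3.83 with no length correction. Of the family members Acad11 and Acad10, Acad11 was at 39.5, 42.0 and 39.2 TPM and Acad10 at 3.48, 2.84 and 3.38 TPM. Acad11 was 12.5-fold higher than Acad10 (edgeR adjusted p = 6.65e-14), with no overlap between the genes in any heart.

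The later steps of the spiral had the largest summed level of the 9 roles, 4563, 4114 and 4237 TPM. Hadhb, which holds the thiolase of the trifunctional protein, was at 1252, 1171 and 1246 TPM, and Hadha, which holds its hydratase and long-chain dehydrogenase, at 1083, 962 and 947 TPM. Both were lower in heart 2 than in heart 1, and Hadhb, unlike Hadha, was nearly as high in heart 3 as in heart 1. Hadha over Hadhb was -0.30 ± 0.04 on the log2 scale (SE; edgeR adjusted p = 7.65e-07), with Hadha the lower in 3 of 3 hearts. The order of this head-to-head pair depends on gene length, since with no length correction the ratio was 0.64 and with longest transcript lengths 0.77. Of the 100-base stretches of Hadhb, 52.8% recur in Gm13910. Acaa2, the mitochondrial thiolase for shorter chains, was at 1150, 984 and 967 TPM, highest in heart 1. Hadhb exceeded it by 0.25 ± 0.05 (log2, SE; edgeR adjusted p = 2.44e-04). With longest transcript lengths the ratio was -0.81, which turned the order round.

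Hadh, the 3-hydroxyacyl-CoA dehydrogenase for short and medium chains, was at 663, 588 and 636 TPM, and Hadha exceeded it 1.58-fold, 0.66 on the log2 scale (edgeR adjusted p = 2.92e-10). The log2 ratio was 1.80 with no length correction and 1.70 with longest transcript lengths. Echs1, the short-chain hydratase that acts just before it, was at 223, 216 and 232 TPM. Echs1 was thus the lower in every heart, at -1.49 ± 0.07 on the log2 scale relative to Hadh (SE; edgeR adjusted p = 1.13e-13). Hsd17b10, a dehydrogenase of isoleucine breakdown that is also part of mitochondrial RNase P, was at 192, 194 and 210 TPM. Hadh exceeded Hsd17b10 3.17-fold, 1.66 on the log2 scale (edgeR adjusted p = 2.00e-12), by 2.71 with no length correction and by 0.81 with longest transcript lengths. Echs1 and Hsd17b10, neighbours in the order of levels, differed by 0.17 on the log2 scale (95% interval -0.09 to 0.43; edgeR adjusted p = 0.189), not past the threshold.

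Unsaturated fatty acids need isomerases and a reductase before they can finish the spiral. Eci1, the mitochondrial enoyl-CoA isomerase, was at 418, 354 and 392 TPM, and Eci2, found in mitochondria and peroxisomes, at 268, 224 and 223 TPM. Eci1 exceeded Eci2 1.63-fold, 0.71 on the log2 scale (edgeR adjusted p = 5.25e-07), and by 1.54 with longest transcript lengths. With no length correction the log2 ratio was 0.20, no longer past the threshold (edgeR adjusted p = 0.0582). Decr1, the mitochondrial 2,4-dienoyl-CoA reductase, was at 292, 256 and 260 TPM, and all 3 genes were highest in heart 1. Decr1 over Eci1 was -0.53 ± 0.08 (log2, SE; edgeR adjusted p = 1.00e-05), and 0.99 with no length correction. Decr2, the peroxisomal reductase, was at 16.8, 19.4 and 15.6 TPM, so Decr1 exceeded it 15.6-fold (edgeR adjusted p = 3.70e-15).

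The electron transfer genes summed to 2141, 1971 and 2019 TPM. Etfb, the beta subunit of electron transfer flavoprotein, was at 1064, 908 and 956 TPM, and Etfa, the alpha subunit, at 601, 576 and 572 TPM. Etfdh, which hands the electrons to ubiquinone, was at 476, 487 and 490 TPM, with a coefficient of variation in TPM of 1.5%, and at 523, 537 and 567 in CPM scaled by edgeR's TMM factors, where its spread was wider. Etfa over Etfb was -0.74 ± 0.07 on the log2 scale (SE; edgeR adjusted p = 1.23e-08). With no length correction the ratio was 0.014. Etfb also shares 65.2% of its 100-base stretches with Gm45233. Etfa exceeded Etfdh by 0.27 ± 0.06 (log2, SE; edgeR adjusted p = 6.80e-04), but lay below it, at -0.41, with no length correction, and above it by 1.02 with longest transcript lengths.

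The 10 peroxisomal genes summed to 812, 850 and 913 TPM, and 1 gene held most of that. Phyh, which starts alpha-oxidation of phytanic acid, a branched fatty acid from chlorophyll (chr2:4918996-4938743), was at 497, 534 and 614 TPM, highest in heart 3. Pecr, a peroxisomal enoyl-CoA reductase, was at 23.9, 17.7 and 20.7 TPM, and Phyh exceeded it 26.5-fold (edgeR adjusted p = 7.56e-16). The 17 genes of the mitochondrial spiral (dehydrogenases, later steps and unsaturated fatty acids) summed to 8614, 7917 and 8253 TPM. Their sum exceeded the peroxisomal sum by 3.27 ± 0.12 on the log2 scale (SD, n = 3), or 9.63-fold, and by 4.74 without Phyh. No test was run on this ratio of sums, and an exact sign-flip test over 3 hearts could give no p below 0.25.

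Within the peroxisomal spiral, the D-bifunctional enzyme gene Hsd17b4 was at 91.3, 92.9 and 87.8 TPM, and Ehhadh, the L-bifunctional enzyme gene, at 12.6, 8.32 and 8.76 TPM. Hsd17b4 exceeded Ehhadh 9.30-fold (edgeR adjusted p = 1.02e-13), least so in heart 1, where Ehhadh was highest. Acox3, an oxidase for branched chains, was at 24.6, 24.6 and 22.7 TPM, and Hsd17b4 exceeded it 3.78-fold (edgeR adjusted p = 1.56e-11). Abcd3, an importer of acyl-CoA into peroxisomes, was at 77.5, 86.2 and 71.6 TPM, and its relative Abcd2 at 1.78, 1.98 and 2.01 TPM. Abcd3 exceeded Abcd2 40.6-fold, 5.34 on the log2 scale (edgeR adjusted p = 7.24e-17), and by 4.62 with no length correction.

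The thiolase copies shown above differed far more in level than in coding sequence. Acaa1a was at 65.9, 62.8 and 67.1 TPM, and Acaa1b at 0.938, 1.40 and 2.32 TPM, below 1 CPM in heart 1. Acaa1a exceeded Acaa1b by 5.39 ± 0.23 on the log2 scale (SE), or 42.0-fold (edgeR adjusted p = 2.69e-14), and the ratio per heart was 6.13, 5.49 and 4.85. With longest transcript lengths the log2 ratio was 4.47. Both genes have fractional counts, 11.81, 18.95 and 33.96 for Acaa1b, as do 5 members in all (also Acad9, Acad10 and Acsl3). Fractions of a count come from reads shared out over several matching genes or transcripts. Of the 100-base stretches of Acaa1b, 30.5% recur in Acaa1a, so the level of Acaa1b is uncertain.

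Thioesterases, which cleave acyl-CoA to free fatty acid, were dominated by Acot13, a mitochondria-associated enzyme, at 520, 536 and 574 TPM. Acot7, known mainly from neurons, was at 101, 72.9 and 78.3 TPM, highest in heart 1. Acot9, a mitochondrial enzyme, was at 34.3, 40.2 and 40.8 TPM, lowest in heart 1. Acot13 exceeded Acot9 14.1-fold, 3.82 on the log2 scale (edgeR adjusted p = 1.02e-15), and by 2.34 with no length correction. Acot9 over Acot7 was -1.12 ± 0.14 (log2, SE; edgeR adjusted p = 5.28e-07), in each heart.

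Malonyl-CoA blocks Cpt1, and the set holds the enzymes that make and remove it. Mlycd, which degrades malonyl-CoA, was at 115, 87.1 and 84.0 TPM, and Acacb, which makes it at the mitochondrial surface, at 89.1, 78.8 and 68.5 TPM. Both were highest in heart 1 and lowest in heart 3. Mlycd exceeded Acacb by 0.27 ± 0.08 on the log2 scale (SE; edgeR adjusted p = 0.00594), a ratio that was -0.21 with longest transcript lengths and -1.80 with no length correction. Plin5, which ties lipid droplets to mitochondria in oxidative muscle, was at 83.4, 68.8 and 69.8 TPM.

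**Figure D3:**
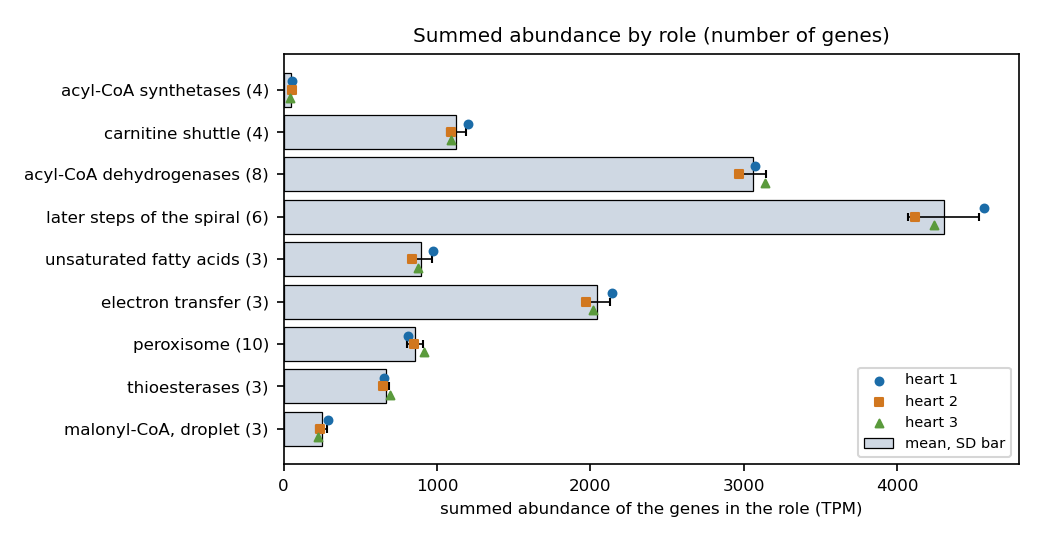
Summed level of the genes of each role in TPM (bars, mean with SD, n = 3), with hearts 1, 2 and 3 as points and the number of genes in brackets. The later steps of the spiral are the highest at 4305 TPM and the 4 acyl-CoA synthetases the lowest at 51.8 TPM.

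The share of each role depends on whether length is taken into account. The 4 synthetases of the set, without Acsl1, held 0.00518% of TPM and 0.00955% of counts. The malonyl-CoA and droplet genes held 0.0248% of TPM and 0.0507% of counts. Thioesterases held 0.0665% of TPM and 0.0259% of counts, and electron transfer genes 0.204% of TPM and 0.136% of counts. The later steps of the spiral were the highest role by both measures.

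Between the 3 hearts the median spread of the set in TPM was below that of all genes tested, and near it above a mean of 10 TPM. That cut does not match members and other genes by abundance. The median coefficient of variation was 7.48% over the 44 members, against 9.27% over the 13653 genes tested, and 7.45% over members with a mean of 10 TPM or more, against 7.48% over all such genes. Variation beyond the trend of genes of like abundance was tested with edgeR's goodness of fit statistic, adjusted over the 13653 genes. It called 251 genes (1.84%) and 1 of the 44 members, Acsl3 (edgeR adjusted p = 0.0443). No other member passed at an unadjusted p under 0.05 either, whereas 5.65% of all genes did. The Acsl3 call is not firm: it was lost with a DESeq2 dispersion trend (adjusted p = 0.0534), without the filter on low counts (edgeR adjusted p = 0.0576) and without any one of the 3 hearts (edgeR adjusted p of 0.0958 to 1.00). Its counts were 821, 598 and 426, and its ratio of highest to lowest heart 2.05. Acaa1b spread over 2.47-fold and Ehhadh over 1.51-fold without passing.

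The share of members that were highest or lowest differed between hearts. Orders of hearts given for single genes are those of TPM and can differ on another scale, as for Acadl, which was at 1227, 1157 and 1271 in TMM-scaled CPM, highest in heart 3. In TPM, 25 of 44 members were highest in heart 1 (against 43.3% of genes tested), 8 in heart 2 (35.7%) and 11 in heart 3 (21.1%). With CPM scaled by edgeR's TMM factors, which allow for differences in composition, 19 were highest in heart 1 (37% of genes tested), 7 in heart 2 (29.3%) and 18 in heart 3 (33.7%). By TMM-scaled CPM, 24 of 44 members were lowest in heart 2, against 28.7% of genes tested, 13 in heart 1 (39.5%) and 7 in heart 3 (31.7%). By TPM, 17 were lowest in heart 2 (22%), 10 in heart 1 (32.2%) and 17 in heart 3 (45.8%), so hearts 2 and 3 tied by count on that scale. The median log2 ratio of heart 2 to the mean of the other hearts was -0.11 over members, against -0.0034 over all genes tested, by TMM-scaled CPM, and -0.07 against 0.03 by TPM. This is a description without a test, since the genes of a heart are not independent.

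**Figure D4:**
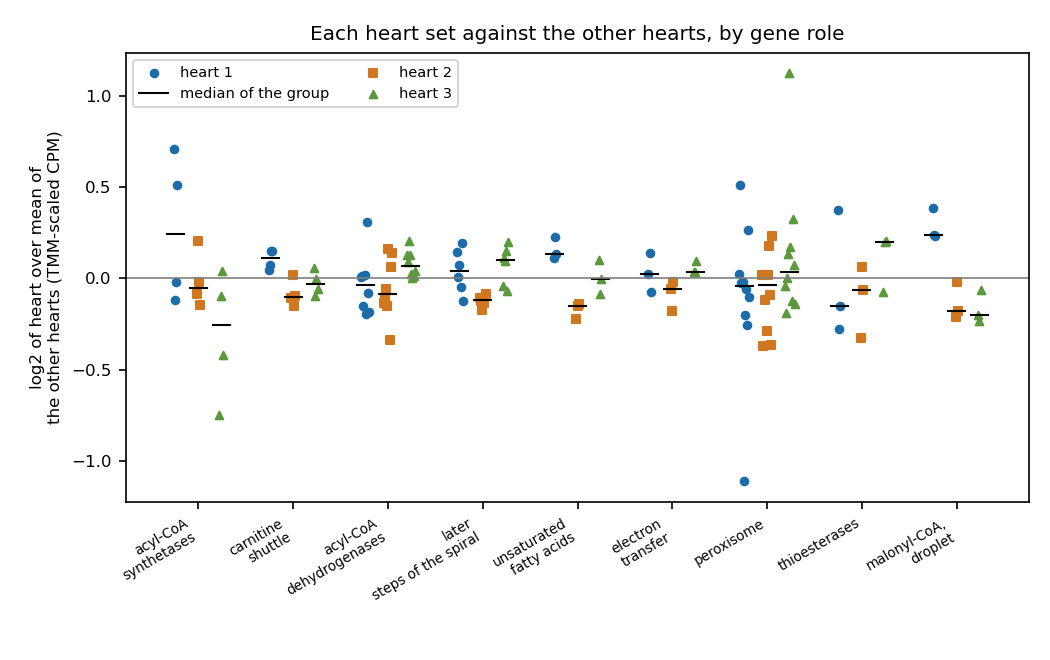
Log2 ratio of each heart to the mean of the other hearts for each of the 44 genes (points, TMM-scaled CPM) by role, with the median of each group as a line. Medians of heart 2 lie below 0 in all 9 roles, and the widest points are Acaa1b, a peroxisomal gene, in hearts 1 and 3.

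Most white adipocyte markers, and some brown ones, were lowest in heart 2. Ucp1, the uncoupling protein that defines brown adipocytes, was at 301, 120 and 201 TPM (edgeR adjusted p = 4.44e-06) and Cidea, a droplet protein of brown fat, at 122, 79.3 and 107 TPM. Of the 8 brown adipocyte markers 6 were tested, 2 passed (against 1.84% of all genes tested) and 3 were lowest in heart 2 (against 22%). The 8 summed to 2168, 1828 and 2260 TPM, with none at 0. Most of each sum was Cox8b, at 1689, 1567 and 1886 TPM and 1 of the 3 lowest in heart 2. Dio2, the other that passed, ran the other way at 2.35, 4.30 and 5.57 TPM. Of the 6 white adipocyte markers tested, 5 were lowest in heart 2 (against 22% of all genes tested) and 4 passed (against 1.84%). Both adipocyte lists were chosen with earlier results of these data known, so these shares are description only. Adipoq, the adipocyte hormone adiponectin, was at 29.4, 11.5 and 23.6 TPM, and Plin1, the droplet coat of adipocytes, at 20.96, 7.18 and 13.1 TPM. Cfd (14.3, 3.46 and 10.8 TPM) and Cidec (12.004, 4.52 and 12.6 TPM) followed the same order of heart 2 below the others. Lep, the hormone leptin, was at or under 0.235 TPM, Retn was at 0 in heart 2, and the white list summed to 3169, 3060 and 3179 TPM, nearly all of it Fabp4, which endothelium also expresses. The part of adipocyte RNA in the levels of the oxidation genes was not tested.

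Genes that respond to fasting and fatty acids were mostly highest in heart 1. Of 10 such genes tested, 5 passed (against 1.84% of all genes tested) and 9 were highest in heart 1 (against 43.3%). The list was chosen with earlier results of these data known, so these shares describe it and are not a test. The list of 14 found summed to 2805, 1962 and 1793 TPM. Acot1, a cytosolic thioesterase, was at 130, 60.8 and 49.7 TPM (edgeR adjusted p = 1.02e-05), and Angptl4, an inhibitor of lipoprotein lipase, at 130, 73.8 and 59.9 TPM. Txnip (981, 595 and 494 TPM), an inhibitor of glucose uptake, and the mitochondrial carrier Ucp3 (106, 71.4 and 53.6 TPM) passed as well. So did Cidec, given above, which is in the white adipocyte list too and was highest in heart 3. Others among the highest of the list did not: Ucp2 averaged 715 TPM, Pdk4, the kinase that shuts off pyruvate dehydrogenase, 293 TPM and Acot2, a mitochondrial thioesterase, 155 TPM.

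**Figure D5:**
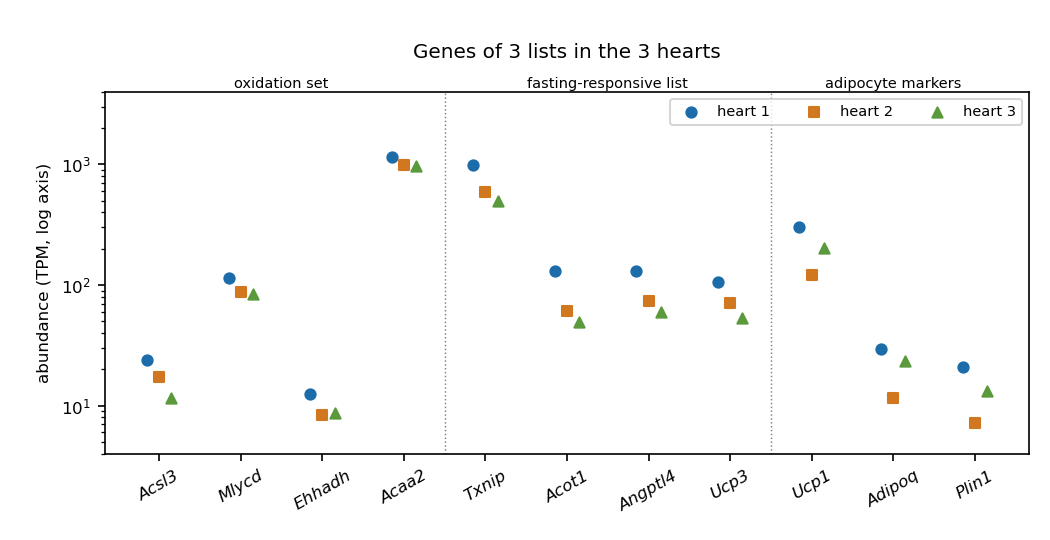
Level in TPM (log axis) in hearts 1, 2 and 3 of 4 members, 4 fasting-responsive genes and 3 adipocyte markers, picked as examples after their values were seen. Acot1 spans 49.7 to 130 TPM and Acaa2 967 to 1150 TPM, and the adipocyte markers are lowest in heart 2.

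Heart 1 also held RNA of airway genes. Scgb1a1, a secretoglobin of airway club cells, was at 1202, 0.280 and 3.48 TPM, and Scgb3a2 at 411, 0.240 and 2.73 TPM. Of 7 lung markers tested, 5 passed, against 1.84% of all genes tested. The others that passed were Bpifa1 at 25.6, 0 and 0.0967 TPM, Sftpd at 3.38, 0 and 0 TPM, and Foxj1 at 1.51, 0.220 and 0.213 TPM. The list of 10 summed to 1651, 4.66 and 11.9 TPM. Macrophage markers were highest in heart 1 in 8 of 8 genes (against 43.3% of all genes tested), and summed to 378, 301 and 322 TPM. Of these, 0 passed by edgeR's goodness of fit (against 1.84%) and 1 had an unadjusted p under 0.05 (against 5.65%). Running the other way, Acta2, smooth muscle actin, was at 303, 670 and 918 TPM and Acta1, skeletal actin, at 24.7, 74.2 and 130 TPM, both past the test. Past it too were the erythroid genes Hbb-bt (517, 797 and 371 TPM) and Alas2 (44.7, 64.0 and 32.1 TPM), and the B cell gene Cd79a (0.352, 3.38 and 3.56 TPM). Their part in the levels of the members was not tested. The marker lists were chosen with earlier results of these data known, so the shares set against all genes are description only.

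Of 43 further pathway genes found in the table, 40 were detected and 41 tested, and 1 passed, Acot1, against 1.84% of all genes tested. At an unadjusted p under 0.05 there were 3 of 41 by edgeR's goodness of fit, against 5.65% of all genes, and no test compared the lists. Ech1, a dienoyl-CoA isomerase, was at 1312, 1029 and 1122 TPM, Acat1, the thiolase of ketone use, at 319, 326 and 328 TPM, and Slc25a20, the carnitine carrier, at 256, 214 and 224 TPM. Catalase (Cat) averaged 202 ± 15.3 TPM and Scp2, a peroxisomal thiolase and lipid carrier, 162 ± 8.71 TPM (SD, n = 3). Of the 41, 32 were highest in heart 1 (against 43.3% of all genes tested) and 9 lowest in heart 2 (against 22%). This list, too, was chosen with earlier results of these data known, so these shares are description only. Of 13 transcriptional regulators of the pathway tested with edgeR's goodness of fit, 0 passed, and 0 had an unadjusted p under 0.05. The 6 highest were Esrra, an estrogen-related receptor, at 97.9 ± 7.22 TPM, the coactivator Ppargc1a at 55.4 ± 3.75, the mitochondrial factor Tfam at 35.8 ± 1.55, the retinoid receptors Rxra at 35.1 ± 4.53 and Rxrb at 34.2 ± 3.52, and Ppard at 23.1 ± 1.57 TPM (SD, n = 3).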

How the data were processed

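Per the file headers, the authors deposited expected counts and FPKM per gene for each of the 3 hearts. Per the submitters' processing notes, the aligner HISAT and the build GRCm38.p6 were used. For the counting tool, gene annotation, strandedness and layout of the reads, no statement was found in the sources used here. Between 87.5% and 87.6% of counts lay within 0.005 of a whole number. FPKM were rescaled to TPM, and counts to CPM. One line without values and 2 columns of authors' means were not used.

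Rounded counts went into edgeR 4.0.16, with limma 3.58.1 and DESeq2 1.42.0 for alternatives, in R 4.3.3. Pairs used a quasi-likelihood fit with the heart as block, an offset of TMM library size times the gene length implied by count and FPKM, and Benjamini-Hochberg adjustment over 946 pairs, two-sided. Variation between hearts was the deviance from an intercept fit with trended dispersion, over genes with 1 CPM in at least 1 heart and 10 counts in all. The threshold was 0.05. The scripts were checked on simulated data. The text names every member, the first 2 markers of each marker list (Alb, of the liver list, was not analysed here), list genes that passed the test of variation and the 6 highest of each other list. A few more list genes, such as Fabp4, Cox8b and Cpt1a, are named as limits on a sum or a comparison. Some genes of these lists are not reported here and were left out of the list counts and sums. The members and lists were chosen with earlier results of these data known.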

Additional observations from a re-analysis of the deposited data

How the results depend on the processing

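Levels rest on lengths. With no length correction the log2 ratios that changed sign were Acsl5 over Acsl3 (-0.17), Hadha over Hadhb (0.64), Decr1 over Eci1 (0.99), Etfa over Etfb (0.014), Etfa over Etfdh (-0.41) and Mlycd over Acacb (-1.80). With longest transcript lengths they were Acsl5 over Acsl3 (-0.27), Hadha over Hadhb (0.77), Hadhb over Acaa2 (-0.81) and Mlycd over Acacb (-0.21), where the longest Hadhb transcript has 4388 bases. With longest coding transcripts, an alternative chosen after seeing the data, it was Acsl5 over Acsl3 alone (-0.27). The mitochondrial over peroxisomal log2 ratio was 3.43 by CPM and, also chosen after seeing the data, 4.74 without Phyh. Without the replicate block, which here sets genes of the same heart side by side, 902 of 946 pairs and 29 of 30 role-based pairs passed. No paired analysis between groups was possible because there is 1 group.

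Members called variable numbered 0 with the DESeq2 dispersion trend, 0 without the filter on low counts and 0 to 0 when a heart was left out. The share of all genes called was 1.45% with that trend and 1.47% without that filter. It was 0.851% to 1.10% when a heart was left out, with fewer hearts to show a spread. The common coefficient of biological variation over all genes was 13.7%, and 3 hearts limit how small a difference between them can pass. Acaa1b and Acsl6, with 11.81 to 33.96 and 20 to 30 counts per heart, are the members whose levels depth limits most.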
